A study of Mus musculus with 21 samples.

Results

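The genes described here are interferon-stimulated genes, a set of 47 symbols looked up in the count table of mouse hematopoietic stem cells (HSCs). Of the 47, 45 had a row among the 21000 genes of the table, 38 of 40 type I genes and all 7 interferon-gamma type genes. Mx1 and Mx2 were not analysed here. Members were found by symbol, without a threshold on a measured value, but the list was drawn up with earlier results of these data known. Irf1, Gbp2, Gbp3, Gbp7, Igtp, Irgm1 and Iigp1 were classed as interferon-gamma type, and every other gene as type I. HSCs (CD150+CD48-Lin-Sca-1+c-Kit+ cells) were sorted from the bone marrow of wild-type mice, 3000 to 3500 cells per library, and 7 groups of 3 libraries were sequenced. The mice were 10 weeks old at the first injection of phosphate-buffered saline (PBS) or of 5-fluorouracil (5-FU, 150 mg/kg, intraperitoneal), a drug that kills dividing cells and drives surviving HSCs into cycle. PBS-treated HSCs were taken 5 days (day 6) after the first or the third injection. HSCs of 5-FU-treated mice were taken at day 6 or 20 days (day 21) after the first or the third injection, the 3 injections being 21 days apart. A separate group held untreated HSCs of 2-year-old mice, called old HSCs. No PBS group was taken at day 21, so day 21 was set against PBS at day 6.

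Interferons are secreted alarm signals. Type I interferons bind the receptor IFNAR and, through the kinases JAK1 and TYK2, bring STAT2 and IRF9 into a complex that binds interferon-stimulated response elements (ISREs). Interferon-gamma binds IFNGR and signals through JAK1 and JAK2 to genes with gamma-activated sites (GAS). The induced genes sense foreign nucleic acid, block viral entry, translation and replication, or, as the guanylate-binding and immunity-related GTPases, act on intracellular pathogens. Stem cells are known to carry many of these transcripts without infection, and interferons are known to push quiescent HSCs into cycle.

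Promoter sequences are shown first, with the elements that the signalling complexes are known to bind. The classes were assigned by symbol and not by these elements, and some members hold neither in the window searched. Both motifs were searched on both strands in the 300 bases around each annotated start (RefSeq, GRCm38.p6), the ISRE core as GAAANNGAA and the GAS as TTCNNNGAA. The motifs share their last letters and can overlap. A promoter was given for 36 of the 45 genes. The ISRE core was found in 20 of the 36 (55.6%), against 9.76% of the 27025 genes of the promoter table, and the GAS in 11 (30.6%), against 9.55%. By class, 15 of 30 type I genes and 5 of 6 interferon-gamma type genes held the ISRE core. The GAS was held by 8 of the 30 and by 3 of the 6, with or without an ISRE core. Of the 14 genes with a promoter that fell at day 6 after 3 administrations of 5-FU, 6 held the ISRE core and 2 the GAS, and of the other 22 genes 14 and 9 did. A match is a description of the letters and does not show a bound site, and a missing match says only that these letters are not in this window. The lines give the 130 bases just before the annotated start, on the gene's strand, with the letters of both motifs in capitals. They were chosen to show a type I gene with a single core (Rsad2), type I genes with 3 cores (Ifit1, Isg15), GTPase genes with cores or with both elements (Irgm1, Gbp3, Gbp7), a GAS alone (Irf1) and a gene with no match that was called in opposite directions after the first and the third administration (Ifitm1).
Rsad2, chr12:26456453-26456582, minus strand: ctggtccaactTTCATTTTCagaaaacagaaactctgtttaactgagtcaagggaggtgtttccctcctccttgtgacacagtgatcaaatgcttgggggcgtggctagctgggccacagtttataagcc
Ifit1, chr19:34640759-34640888, plus strand: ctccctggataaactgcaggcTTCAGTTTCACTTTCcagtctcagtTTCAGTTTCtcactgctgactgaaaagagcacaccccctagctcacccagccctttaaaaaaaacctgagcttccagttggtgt
Isg15, chr4:156200819-156200948, minus strand: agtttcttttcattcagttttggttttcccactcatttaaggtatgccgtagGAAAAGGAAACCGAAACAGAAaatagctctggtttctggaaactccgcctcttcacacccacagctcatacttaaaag
Irgm1, chr11:48871421-48871550, minus strand: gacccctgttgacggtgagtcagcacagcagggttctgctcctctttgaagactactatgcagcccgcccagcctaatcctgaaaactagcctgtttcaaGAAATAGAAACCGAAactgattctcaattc
Gbp3, chr3:142559914-142560043, plus strand: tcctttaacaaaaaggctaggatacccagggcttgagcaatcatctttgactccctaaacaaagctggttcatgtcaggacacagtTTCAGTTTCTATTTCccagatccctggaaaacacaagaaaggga
Gbp7, chr3:142530206-142530335, plus strand: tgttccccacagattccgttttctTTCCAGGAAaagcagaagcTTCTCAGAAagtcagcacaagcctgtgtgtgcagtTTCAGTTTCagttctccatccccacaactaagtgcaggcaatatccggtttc
Irf1, chr11:53769884-53770013, plus strand: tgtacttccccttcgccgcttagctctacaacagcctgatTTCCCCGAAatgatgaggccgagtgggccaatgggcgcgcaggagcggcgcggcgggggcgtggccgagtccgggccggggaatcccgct
Ifitm1, chr7:140967946-140968075, plus strand: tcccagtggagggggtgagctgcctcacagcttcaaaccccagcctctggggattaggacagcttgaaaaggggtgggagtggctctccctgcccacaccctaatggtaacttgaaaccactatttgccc
In Ifit1, Isg15, Irgm1 and Gbp3 neighbouring cores overlap and read as 1 longer run of capitals. The annotated starts used for Ifitm1 and Irgm1 lie inside the GENCODE gene models, so the windows do not cover the most upstream starts of these genes.

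Libraries held 22184885 to 38649033 counts (median 26962256), and the limit that 3 counts allow was 0.0850 to 0.128 CPM, the count of a gene relative to the total of its library. All 45 genes passed the filter on low counts in every comparison. Levels are CPM scaled by the trimmed mean of M values over all 21 libraries, and differences are log2 fold changes from the quasi-likelihood F test of edgeR on the counts, adjusted by Benjamini and Hochberg over all genes tested and called at an adjusted p under 0.05. After 5-FU at day 6 the sort gate was widened to cells with less c-Kit and an antibody to Mac-1 was left out, so gate and drug cannot be told apart. In sorted bulk cells fewer cells of a type and less RNA per cell cannot be told apart either. The gate marker Sca-1 (Ly6a), itself known as interferon-inducible, had group means of 267 CPM in PBS once, 542 in 5-FU once, 404 in PBS 3 times and 481 in 5-FU 3 times at day 6, and c-Kit (Kit) had 1075, 597, 1012 and 757. The column names of the 6 libraries of PBS once and 5-FU once at day 6 carry an ending that the other 15 lack and whose meaning was not given in the sources used here. It runs along with any comparison of these groups with the others, and its part in those results was not tested. The labels do not say whether libraries of a group came from separate mice, so p-values measure the spread between these libraries.

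**Figure D1:**
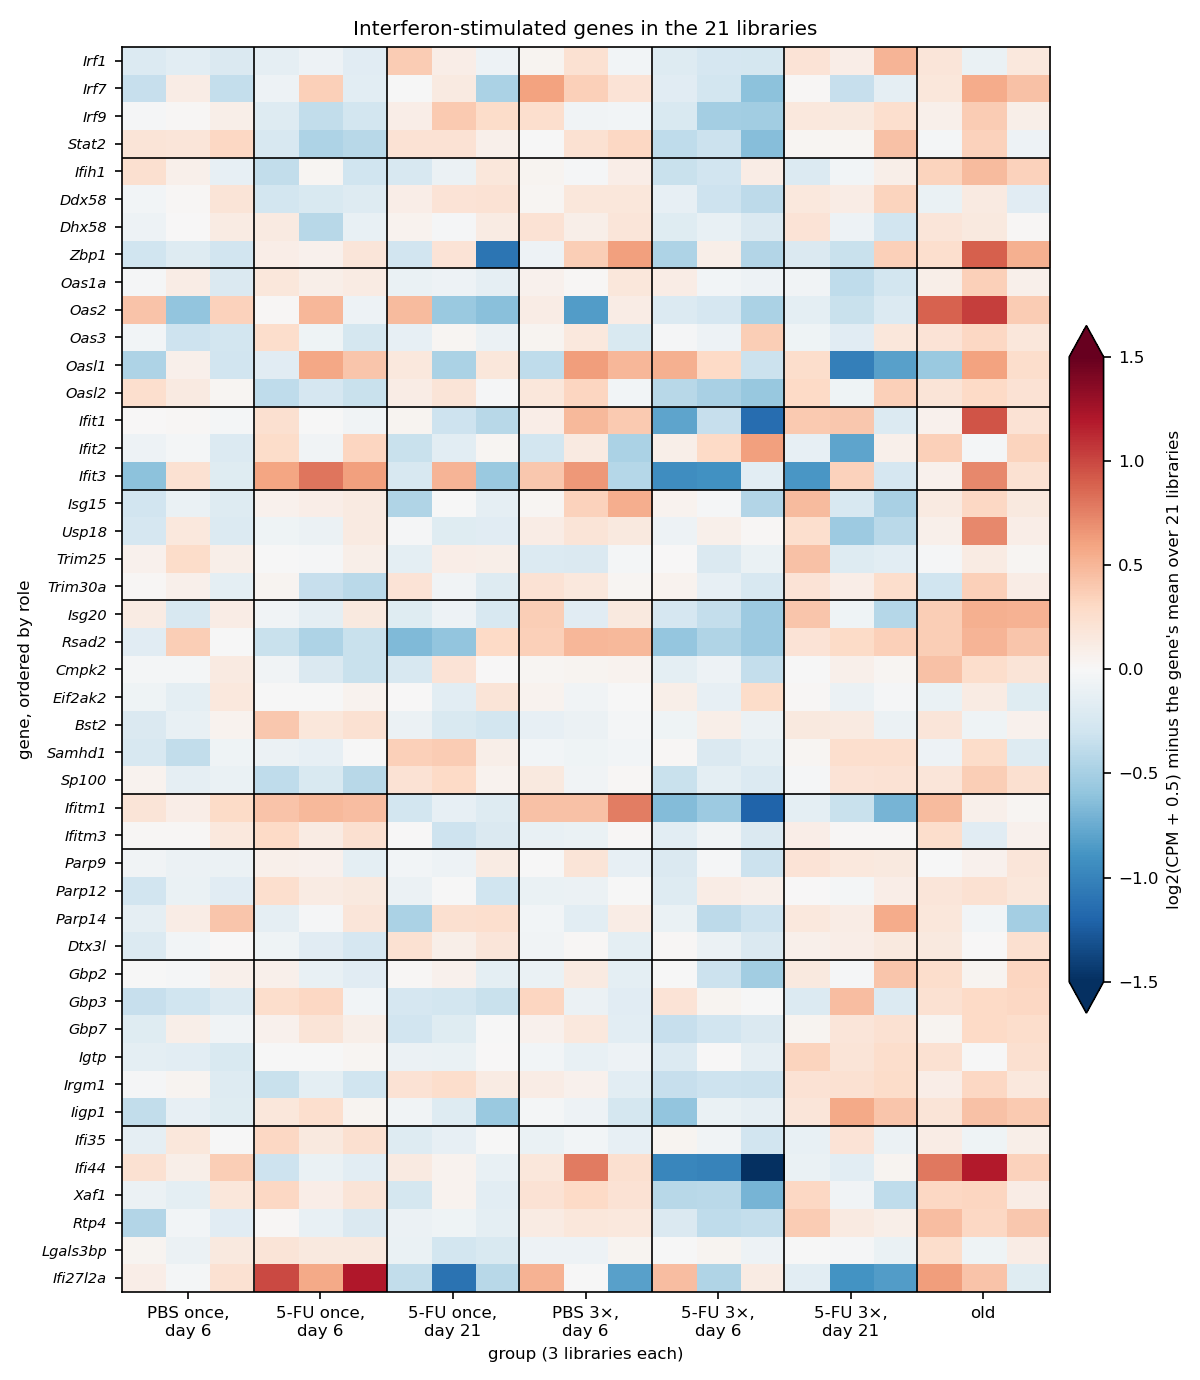
Levels of the 45 interferon-stimulated genes (rows, by role, horizontal lines between roles) in the 21 libraries (columns, 3 per group). Colour is log2(CPM + 0.5) minus the mean of that gene over the 21 libraries, with red higher and blue lower. In the columns of 5-FU 3 times at day 6, 22 of the 45 genes have their lowest group mean, and 19 have their highest in old HSCs.

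In HSCs of PBS-treated mice the genes spanned a wide range of levels. Per kilobase of the longest annotated transcript, Ifitm1, a membrane protein that blocks viral entry and is abundant in primitive cells, was highest with a mean of 849 CPM per kilobase in PBS once. Sp100, a component of PML nuclear bodies, followed with 113, and Irf1, the transcription factor of the interferon-gamma response, with 95.5. The neighbours Isg20 (62.6), Irf9 (51.0) and Gbp3 (47.7) came next. The classic infection-induced genes lay at the low end, with Isg15 at 3.34, Rsad2 at 3.08 and Ifit3 at 1.66 CPM per kilobase. Of the 10 interferon ligand genes, 7 had 0 counts in every library, and Ifnb1 alone passed 3 counts, in 1 library of PBS once at 0.149 CPM.

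At day 6 after a single administration of 5-FU, interferon-stimulated genes moved in both directions. Of the 45, 4 rose and 6 fell, against 11.5% and 10.6% of the 12759 genes tested, so the share called was 8.89% and 13.3%, near that of all genes. The median log2 fold change was 0.08, against 0.00 over all genes. The fallen genes were of the type I class and included parts of the receptor signal itself. Stat2, the type I specific STAT, was at 37.6, 37.1 and 40.7 CPM after PBS and at 27.7, 23.6 and 24.5 after 5-FU, a fall of 0.62 on the log2 scale (SE 0.0892, adjusted p = 0.0049 by edgeR). Irf9, its DNA-binding partner, went from 191, 195 and 205 CPM to 168, 150 and 160, and fell by 0.32 (adjusted p = 0.019 by edgeR). Neither pair of groups overlapped. Over the list, 11 genes lay wholly above PBS and 8 wholly below, against 24.0% and 19.8% of all genes.

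Oasl2, a member of the 2′-5′ oligoadenylate synthetase-like family, fell by 0.47 on the log2 scale (adjusted p = 0.0090, edgeR), from 121, 112 and 104 CPM to 77.6, 85.3 and 80.8. Ifi44, a cytoplasmic interferon-induced protein, was at 47.3, 43.0 and 52.1 CPM after PBS and at 32.4, 37.7 and 36.2 after 5-FU, a fall of 0.43 (adjusted p = 0.025, edgeR). All 3 libraries of 5-FU were below all 3 of PBS for both genes. Sp100 fell by 0.29 (adjusted p = 0.041, edgeR) and Ddx58, which encodes the RNA sensor RIG-I, by 0.30 (adjusted p = 0.048, edgeR), again without overlap between the groups.

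The 4 genes that rose after a single administration were of both classes. Gbp3, a guanylate-binding protein, was at 123, 126 and 135 CPM after PBS and at 186, 193 and 152 after 5-FU, a log2 fold change of 0.46 (SE 0.102, adjusted p = 0.020, edgeR). Iigp1, an immunity-related GTPase, went from 87.3, 104 and 99.7 CPM to 127, 135 and 117, a log2 fold change of 0.37 (adjusted p = 0.029, edgeR). By class, 2 of 7 interferon-gamma type genes rose and 0 of 7 fell, while 2 of 38 type I genes rose and 6 fell. Over all genes 11.5% rose and 10.6% fell. The calls on Gbp3 and on Iigp1 were each lost in 5 of the 13 alternatives. A difference between the classes was not tested. The type I genes that rose were Parp12, an antiviral mono-ADP-ribosyltransferase, at 22.2, 25.6 and 24.2 CPM after PBS and 32.5, 29.7 and 30.3 after 5-FU (log2 fold change 0.35, adjusted p = 0.026, edgeR), and Ifitm1. Ifitm1 was at 745, 703 and 799 CPM after PBS and at 877, 913 and 897 after 5-FU, a log2 fold change of 0.25 (SE 0.0633, adjusted p = 0.031, edgeR). None of the IFIT family or of the ISG15 system and TRIM ligases passed the test. The count of called genes was 4 to 6 when any single library was left out. Stat2 and Oasl2 passed in each of the 13 alternatives run, and the other 8 called genes lost the call in some of them.

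At day 6 after the third administration the genes that were called all moved one way. Of the 45, 16 fell and 0 rose, 35.6% against the 8.30% of 12729 genes tested that fell and the 9.84% that rose. The median log2 fold change was -0.26, against -0.01 over all genes, and 36 of the 45 estimates were negative. For 19 genes all 3 libraries of 5-FU lay below all 3 of PBS, against 17.8% of all genes. For 0 genes did they lie above, against 22.5%. Replicate 3 of 5-FU 3 times was the lowest of its 3 libraries for 26 of the 45 genes, against 35.1% of all genes. By class, 14 of 38 type I genes and 2 of 7 interferon-gamma type genes fell, and the class medians were -0.25 and -0.26. At an unadjusted p under 0.05 there were 21 genes. Throughout, counts at an unadjusted p, by DESeq2 or in the other alternatives have no share of all genes beside them. They are not read as a result about these genes.

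All 4 transcription factors of the list fell after the third administration. Irf7, the amplifier of the type I response, went from 96.9, 81.7 and 73.8 CPM after PBS to 56.7, 52.8 and 41.5 after 5-FU, a fall of 0.76 on the log2 scale (SE 0.149, adjusted p = 0.016, edgeR). Stat2 went from 32.8, 38.5 and 40.8 CPM to 25.1, 26.1 and 20.9 and fell by 0.66 (adjusted p = 0.014, edgeR). Irf9 fell by 0.49 (adjusted p = 0.034, edgeR), from 230, 186 and 187 CPM to 165, 136 and 134. Irf1 was at 241, 273 and 227 CPM after PBS and at 204, 196 and 194 after 5-FU, a fall of 0.34 (adjusted p = 0.036, edgeR). The groups did not overlap for any of the 4. The call on Irf1 was lost in 7 and that on Irf9 in 5 of the 13 alternatives.

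Among the RNA sensors, Ddx58 fell by 0.42 (adjusted p = 0.028, edgeR) and Dhx58, which encodes the regulatory helicase LGP2, by 0.36 (adjusted p = 0.033, edgeR). Ifih1, which encodes MDA5, and the Z-nucleic acid sensor Zbp1 did not pass. Ifih1 was at 75.5, 72.4 and 78.3 CPM after PBS and at 58.1 to 79.2 after 5-FU, so its groups overlapped. In the OAS family Oasl2 fell by 0.68 (adjusted p = 0.0086, edgeR), from 114, 127 and 98.9 CPM to 75.8, 72.3 and 68.1. The synthetases Oas1a, Oas2 and Oas3 and the translation inhibitor Oasl1 did not pass, and Oas3 was at 25.1, 27.4 and 20.8 CPM against 24.2, 23.2 and 31.6.

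The IFIT proteins bind viral RNA ends and block translation. Ifit1 went from 10.8, 14.2 and 13.4 CPM to 5.57, 7.78 and 4.25, a fall of 1.15 on the log2 scale (SE 0.237, adjusted p = 0.019, edgeR). Ifit2 did not pass and had the highest estimate of the 45, with 51.2, 68.1 and 44.4 CPM after PBS and 65.9, 76.1 and 95.3 after 5-FU. Ifit3, at 1.48 to 5.43 CPM in these libraries, did not pass either. The family therefore had 1 of 3 genes past the threshold. The ISG15 system and TRIM ligases had 0 of 4.

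The antiviral effectors gave the smallest p of the list. Rsad2, which encodes viperin, went from 15.7, 17.3 and 17.2 CPM to 7.97, 8.77 and 8.16, a fall of 1.03 (SE 0.104, adjusted p = 0.0026, edgeR). The 3 libraries of each group lay close together and far from the other group. Sp100 fell by 0.29 (adjusted p = 0.049, edgeR). The exonuclease gene Isg20 also fell, from 87.7, 60.2 and 74.6 CPM to 56.8, 52.6 and 46.0. Cmpk2, the neighbour of Rsad2 on chromosome 12, was at 22.5, 22.7 and 23.0 CPM after PBS and at 19.9, 20.9 and 17.1 after 5-FU and did not pass, although its groups did not overlap.

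Ifitm1 had the highest level and one of the steepest falls. It was at 886, 888 and 1111 CPM after PBS 3 times and at 415, 449 and 283 after 5-FU 3 times, a fall of 1.35 on the log2 scale (SE 0.182, adjusted p = 0.0053, edgeR). Every library of 5-FU was under every library of PBS by more than the spread within either group. Its relative Ifitm3 was at 23.3, 23.4 and 25.3 CPM against 22.5, 24.1 and 21.5 and did not pass. None of the PARP and DTX3L genes passed.

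Ifi44 had the steepest fall of all 45 genes, from 45.5, 69.8 and 47.8 CPM to 20.1, 19.9 and 13.7, which is 1.62 on the log2 scale (SE 0.215, adjusted p = 0.0052, edgeR). Xaf1, an interferon-induced antagonist of the apoptosis inhibitor XIAP, went from 28.6, 30.4 and 28.7 CPM to 18.3, 18.5 and 14.9 and fell by 0.78 (SE 0.106, adjusted p = 0.0054, edgeR). Rtp4, a chaperone of G protein-coupled receptors with antiviral activity, fell by 0.50 (adjusted p = 0.014, edgeR), from 18.1, 18.7 and 18.6 CPM to 14.2, 12.6 and 12.9. None of the 3 genes overlapped between the groups. In the annotation 13.9% of the exonic bases of Rtp4 lie in another gene model on the same strand, so its reads are less certain.

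Among the interferon-inducible GTPases, Irgm1 fell by 0.36 (adjusted p = 0.034, edgeR), from 161, 156 and 133 CPM to 117, 120 and 119. Gbp7 was at 236, 253 and 203 CPM against 177, 185 and 195, without overlap, and did not pass. Gbp3 and Iigp1, which rose after a single administration, were at 195, 147 and 138 CPM against 179, 159 and 154, and at 111, 107 and 93.8 CPM against 75.0, 106 and 103. Both pairs overlapped. The count of called genes was 9 to 11 when any single library was left out, so leaving out any of the 6 libraries lowered it. Rsad2, Ifi44, Ifitm1, Xaf1, Oasl2, Rtp4, Stat2 and Irf7 passed in each of the 13 alternatives. Dhx58 and Sp100 each lost the call in 8 of them, Irf1 in 7, Irgm1 in 6, Irf9 and Ddx58 each in 5 and Ifit1 in 3. The calls on both interferon-gamma type genes, Irf1 and Irgm1, were thus among those lost in some alternatives. Isg20 was not followed by name in them.

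**Figure D2:**
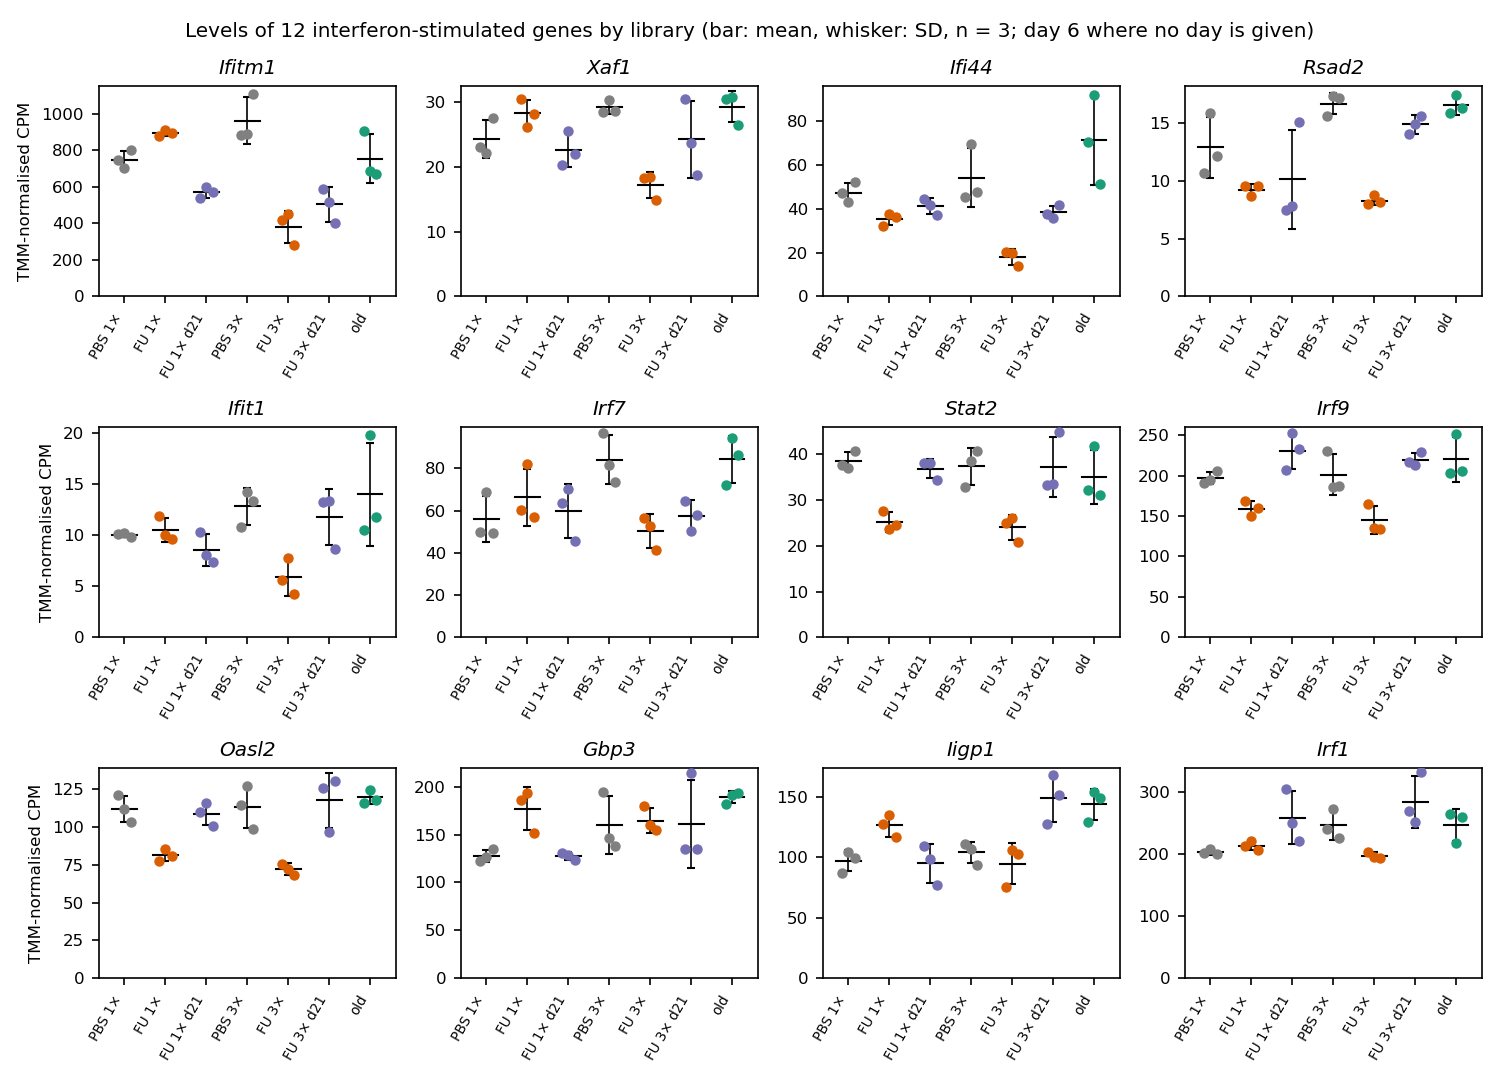
TMM-normalised CPM of 12 interferon-stimulated genes in every library (points), by group, with the group mean (bar) and SD (whisker, n = 3) on axes that start at 0. After 3 administrations of 5-FU the 3 libraries lie below those of PBS 3 times for Ifitm1, Xaf1, Ifi44, Rsad2, Ifit1, Irf7, Stat2, Irf9, Oasl2 and Irf1, and overlap them for Gbp3 and Iigp1.

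The sum over the 45 genes showed the same contrast as a level. It was 3371 to 3456 CPM in PBS once, 3437 to 3605 in 5-FU once, 3802 to 3881 in PBS 3 times and 2642 to 2858 in 5-FU 3 times at day 6. Ifitm1 is a large part of it, and without Ifitm1 the last pair was at 2728 to 2994 and 2359 to 2409 CPM. The 7 interferon-gamma type genes summed to 857 to 1008 CPM in PBS 3 times and 814 to 827 in 5-FU 3 times, and the 38 type I genes to 2800 to 2982 and 1822 to 2031. The sums did not overlap in either class. The type I sums include Ifitm1, and sums by class were not taken without it, so they do not compare the size of the fall between the classes.

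The day 6 comparisons after 1 and 3 administrations share no library. Of the 45 genes, 6 fell in both, Stat2, Oasl2, Irf9, Ifi44, Sp100 and Ddx58, which is 13.3% against 4.06% of the 12502 genes tested in both. The estimate was above 0 after the first and below 0 after the third administration for 20 genes (44.4%), against 14.2% of all genes. The opposite order was seen for 1 gene, against 1618 of the 12502. Ifitm1 was the gene called in opposite directions, as were 12 of the 12502 genes. Its call after the first administration was lost in 8 of 13 alternatives. The change of the drug's effect was tested as an interaction over the 12 day 6 libraries. It was lower after the third administration for 2 genes, against 0.310% of 13227 genes, and higher for 0, against 0.340%. Ifitm1 had an interaction of -1.59 on the log2 scale (SE 0.207, adjusted p = 0.015, edgeR) and Xaf1 of -0.98 (SE 0.154, adjusted p = 0.017, edgeR). Xaf1 was at 23.1, 22.2 and 27.6 CPM in PBS once and 30.5, 26.3 and 28.2 in 5-FU once, so its groups overlapped there.

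For the other 43 genes a difference between the administrations was not called, although 39 of the 45 interactions were negative, with a median of -0.23 against 0.00 over all genes, and 17 had an unadjusted p under 0.05. DESeq2 called 10. Part of the interaction lies in the PBS groups. Ifitm1 was at 703 to 799 CPM in PBS once and 886 to 1111 in PBS 3 times, and at 877 to 913 in 5-FU once and 283 to 449 in 5-FU 3 times. Without replicate 1 of PBS once the interaction of Xaf1 was no longer called (adjusted p = 0.057, edgeR). The interaction also crosses the library sets that differ in the ending of their column names.

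**Figure D3:**
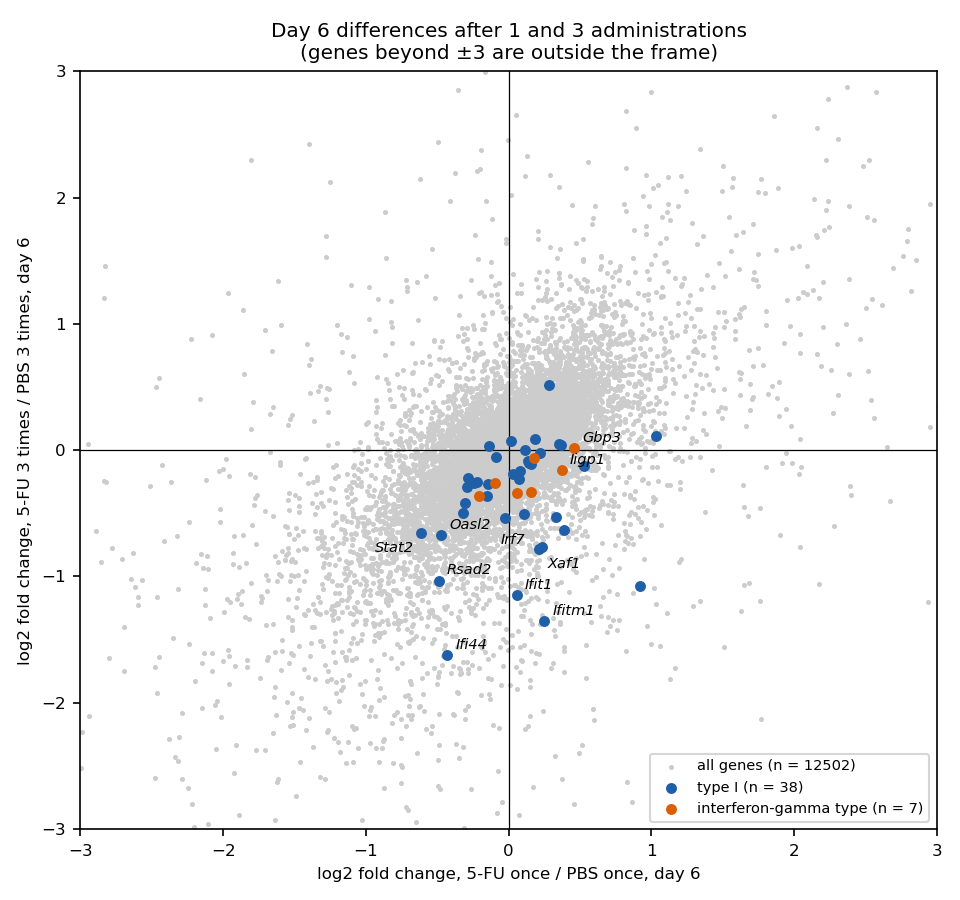
Log2 fold change at day 6 after 3 administrations of 5-FU (vertical) against that after 1 (horizontal) for 12502 genes (grey), 38 type I genes (blue) and 7 interferon-gamma type genes (orange). Ifitm1 lies at 0.25 and -1.35, right of 0 and far below it, and 20 of the 45 genes lie in that lower right part.

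The pathway around these genes was read from 49 further genes, of which 36 were tested in each of the 2 day 6 comparisons. After the first administration 3 rose and 6 fell, against 11.5% and 10.6% of all genes. Irf8, a myeloid and lymphoid transcription factor, rose from a mean of 5.83 CPM in PBS to 22.7 in 5-FU (log2 fold change 1.95, adjusted p = 0.0036, edgeR). Sting1, the adaptor of DNA sensing, rose by 0.35, while the kinase gene Jak2 fell by 0.41, Stat3 by 0.38 and the RNA sensing adaptor gene Mavs by 0.40 (adjusted p = 0.012, 0.0074, 0.0071 and 0.012, edgeR). After the third administration 2 rose and 6 fell, against 9.84% and 8.30% of all genes. Cgas, the DNA sensor, rose by 0.84 on the log2 scale (adjusted p = 0.0055, edgeR). Irf5 fell by 0.68, the cytokine signal inhibitor Cish by 0.69, the receptor chain gene Il10rb by 0.56 and Irf2bp2 by 0.40 (adjusted p = 0.017, 0.010, 0.026 and 0.025, edgeR). The receptor genes did not move together. Il10rb was at 20.4, 20.5 and 20.0 CPM in PBS 3 times and 15.7, 14.7 and 11.6 in 5-FU 3 times, while Ifngr2, a chain of the interferon-gamma receptor and 1 of the 2 that rose, was at 14.8, 12.1 and 13.3 against 18.5, 19.3 and 17.5. The type I receptor genes Ifnar1 and Ifnar2 overlapped between the groups, at 34.3 to 43.3 against 32.5 to 36.1 CPM and 146 to 167 against 160 to 190 CPM.

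By day 21 no interferon-stimulated gene was called in either direction. After a single administration, set against PBS once at day 6, 0 of 45 passed in edgeR, against 0.0712% of all genes higher and 0.150% lower, with 8 at an unadjusted p under 0.05 and 2 in DESeq2. After 3 administrations, set against PBS 3 times, 0 passed, against 0.0396% and 0.00792%, with 8 unadjusted and 4 in DESeq2. After the single administration 6 genes lay wholly above PBS once and 4 wholly below, against 10.3% and 10.8% of all genes. The medians were -0.03 and -0.01, against -0.01 and 0.00 over all genes. Of the 16 genes that fell at day 6 after 3 administrations, 13 no longer lay wholly under PBS 3 times at day 21, and 3 did. Rsad2 was at 14.1 to 15.7 CPM at day 21 after 3 administrations. It met the range of PBS 3 times only at its edge, at 15.7 CPM. Stat2 was at 33.4, 33.4 and 44.8, Irf9 at 216, 213 and 229 and Oasl2 at 126, 97.0 and 130 CPM. The last 3 genes overlapped PBS 3 times.

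The 3 genes were Ifitm1, Irf7 and Ifi44. Ifitm1 was at 540, 600 and 570 CPM after a single administration, under the 703 to 799 of PBS once, and at 589, 519 and 403 after 3, under the 886 to 1111 of PBS 3 times. Neither difference of Ifitm1 was called after adjustment. Ifi44 was at 37.7, 36.0 and 41.7 CPM and Irf7 at 64.7, 50.1 and 57.9 after 3 administrations, likewise under all libraries of PBS 3 times and not called. For 4 genes, the fourth being Oas1a, the day 21 libraries lay wholly under PBS 3 times and for 6 wholly above, against 10.4% and 11.0% of all genes.

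The interferon-gamma type genes were on the high side at day 21 after 3 administrations, short of the threshold. All 7 estimates against PBS 3 times were positive, with a median of 0.22 against 0.00 over all genes, and 0 were called, with a lowest adjusted p of 0.16 by edgeR. Iigp1 was at 128, 168 and 151 CPM against 111, 107 and 93.8, and Igtp, another immunity-related GTPase, at 47.4, 43.1 and 45.2 against 36.5, 34.8 and 35.7. Both were without overlap, and 8.01% of the exonic bases of Igtp also lie in Irgm2. Set directly against day 21 after a single administration, all 7 were again positive (median 0.30), while 22 of 38 type I genes were (median 0.03). In that comparison 0 of 45 genes were called, against 0.00802% of all genes higher and 0.00% lower, with 4 at an unadjusted p under 0.05 and 1 in DESeq2. Without overlap, 8 genes were higher and 0 lower, against 6.65% and 5.96%. These comparisons share the libraries of day 21 after 3 administrations.

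The 7 interferon-gamma type genes summed to 1018 to 1148 CPM at day 21 after 3 administrations, to 873 to 969 after 1 and to 857 to 1008 in PBS 3 times. Old HSCs summed to 1047 to 1120, and 5-FU once at day 6 to 902 to 1007. The 6 libraries of day 21 after 3 administrations and of old HSCs lay above the other 15. The margin was narrow, with 1018 CPM for the lowest of the 6 and 1008 for the highest of the 15.

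Old HSCs held the highest group mean of more of the genes than any other group did. Of the 45, 19 had their highest group mean in old HSCs, against 12.7% of all genes, and 22 had their lowest in 5-FU 3 times at day 6, against 18.4%. Set against PBS once, 2 rose, against 1.44% of 12855 genes, and 0 fell, against 0.443%. The estimates were positive for 39 of 45, with a median of 0.28 against 0.00 over all genes. For 18 genes every old library was above every PBS library and for 0 below, against 11.1% and 9.52% of all genes. At an unadjusted p under 0.05 there were 18, and DESeq2 called 10. Both counts are given without the share of all genes and are not read as a result.

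Both genes that rose in old HSCs were GTPases of the interferon-gamma type. Gbp3 was at 182, 191 and 194 CPM against 123, 126 and 135, a log2 fold change of 0.56 (SE 0.0773, adjusted p = 0.013, edgeR). Iigp1 was at 129, 153 and 149 CPM against 87.3, 104 and 99.7, a log2 fold change of 0.57 (SE 0.107, adjusted p = 0.045, edgeR). The call on both GTPases was lost, leaving 0 of 45, when replicate 2 or 3 of the old group or replicate 1 or 2 of PBS once was left out. With replicate 3 of PBS once left out 1 gene was called.

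Set against PBS 3 times, a group without the column ending in question, 0 of 45 genes were called in old HSCs, against 0.553% of 12847 genes higher and 0.444% lower, with 9 at an unadjusted p under 0.05 and 2 in DESeq2. The estimates were positive for 32 of 45, with a median of 0.13, and for 10 genes every old library was above every PBS library and for 0 below, against 8.44% and 8.49% of all genes. Iigp1 did not overlap, at 129 to 153 CPM against 93.8 to 111. Gbp3 overlapped, at 182 to 194 against 138 to 195. Ifih1 was at 92.1, 101 and 93.2 CPM in old HSCs and at 72.4 to 78.3 in PBS 3 times, and Rtp4 at 23.1, 20.7 and 22.1 against 18.1 to 18.7. Ifi44 had its highest libraries in old HSCs, at 70.4, 92.3 and 51.4 CPM, and overlapped PBS 3 times at 45.5 to 69.8. Replicate 2 of the old group was the highest of its 3 for 28 of the 45 genes, against 32.7% of all genes.

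The control groups were also set against each other. PBS 3 times against PBS once gave 0 called genes, against 0.00781% of 12806 genes in each direction, with 9 at an unadjusted p under 0.05 and 2 in DESeq2. The estimates were positive for 34 of 45, with a median of 0.11 against 0.00 over all genes. For 11 genes every library of PBS 3 times was above every library of PBS once and for 2 below, against 9.97% and 10.1% of all genes. Irf7 was one, at 73.8 to 96.9 CPM against 49.6 to 68.7, and Ifitm1 another. The mice of PBS 3 times were also older at collection and their libraries lack the column ending, which cannot be told apart from the number of injections.

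**Figure D4:**
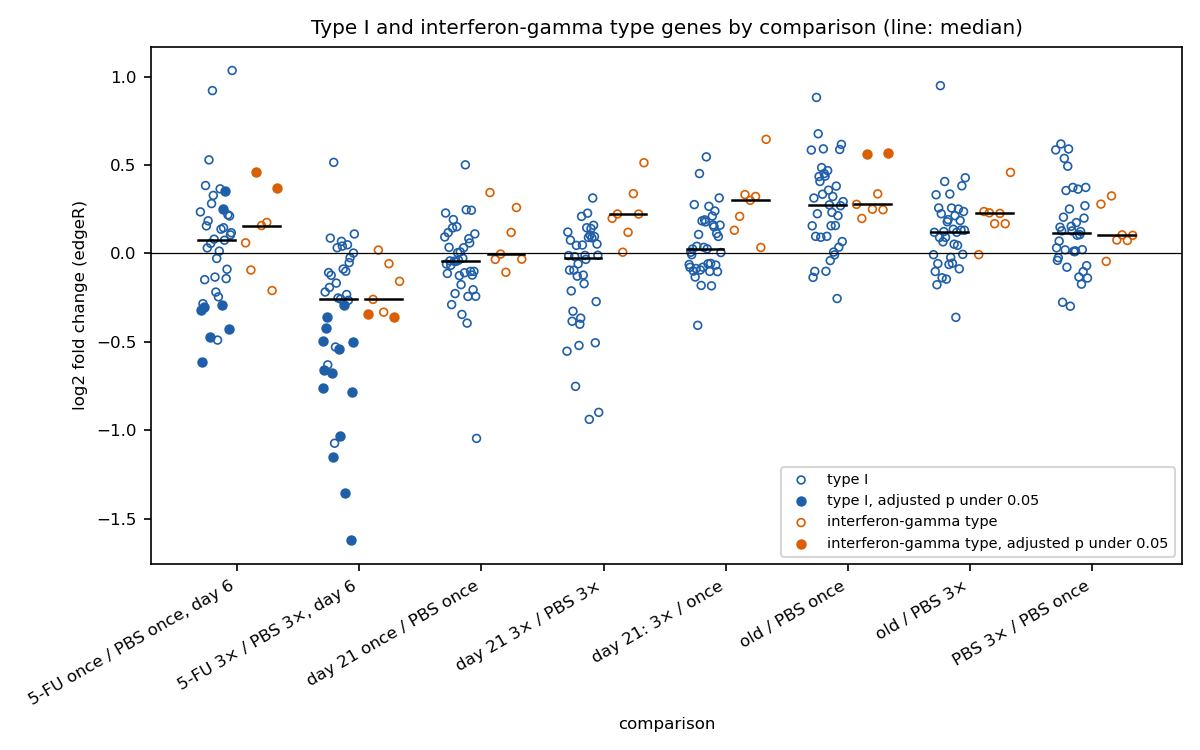
Log2 fold change of each of the 38 type I genes (blue) and 7 interferon-gamma type genes (orange) in 8 comparisons, with filled circles past an adjusted p of 0.05 and lines at the class medians. After 3 administrations at day 6 the filled circles are 14 blue and 2 orange, all below 0, and in old HSCs against PBS once they are 2 orange circles above 0.

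The remaining genes passed no test. Zbp1 was at 7.75 to 8.36 CPM in PBS once, 10.1 to 10.9 in 5-FU once and 11.6 to 18.3 in old HSCs. Ifi27l2a, an interferon-induced membrane protein, was at 1.27 to 1.63 CPM in PBS once and 2.18 to 3.67 in 5-FU once, without overlap and not called. Bst2, which encodes the virus-tethering protein tetherin, was at 11.7 to 14.2 CPM in PBS once and 15.4 to 18.3 in 5-FU once. The kinase gene Eif2ak2, the nucleotide hydrolase gene Samhd1, Trim25, Trim30a, Usp18, Isg15, Parp9, Parp14, Dtx3l, Gbp2, Ifi35, Lgals3bp and Oas1a passed in none of the 9 comparisons, nor did Oas2, Oas3, Oasl1, Ifit2, Ifit3, Cmpk2, Ifitm3, Gbp7, Igtp, Ifih1, Zbp1, Bst2 and Ifi27l2a. Reads of close paralogs in the Oas1, Gbp, Ifit, Ifitm and Trim30 families can be split or shared by the counting. Parp9 and Dtx3l overlap head to head on opposite strands, with 9.40% of the exonic bases of Parp9 shared, and whether strand was used in counting was not given.

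Marker genes of other cells differed between 5-FU and PBS at day 6. The 5 megakaryocyte genes summed to 113 to 137 CPM in PBS once and 34.1 to 43.2 in 5-FU once, and to 116 to 129 and 80.5 to 86.4 after 3 administrations. The 9 neutrophil and granule genes summed to 46.9 to 92.6 CPM in PBS once and 17.1 to 29.5 in 5-FU once, and to 44.0 to 67.9 and 14.6 to 24.6 after 3. The 7 erythroid genes summed to 17.6 to 29.8 CPM in PBS once and 91.7 to 99.9 in 5-FU once, and to 21.6 to 37.2 and 36.4 to 49.0 after 3. These erythroid sums overlapped after 3 administrations and the others did not.

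The 6 plasmacytoid dendritic genes, which include Bst2 and Irf8, summed to 18.6 to 19.5 CPM in PBS once and 35.8 to 41.8 in 5-FU once. In both groups only 2 of the 6, Bst2 and Irf8, passed 3 counts in every library, so the sum is mostly theirs. After 3 administrations the sums were 20.1 to 22.5 in PBS and 21.6 to 25.1 in 5-FU. In each of these 2 groups 3 of the 6 were at 0 in every library. The 10 T and NK genes summed to 50.6 to 61.9 CPM and 31.7 to 44.3 after a single administration and to 51.5 to 55.9 and 45.2 to 58.9 after 3, with 5 of the 10 at 0 in every library of each of the 4 groups. The B cell genes with a row, 5 of 6, summed to 35.1 to 41.8 and 35.4 to 38.5 CPM, and to 42.8 to 52.4 and 33.9 to 36.4. The 8 monocyte and macrophage genes summed to 60.9 to 68.0 CPM and 56.0 to 61.4, and to 55.0 to 67.5 and 49.4 to 66.6. The B cell sums were apart after 3 administrations, and the monocyte sums overlapped in both pairs. In old HSCs the erythroid sum was 50.9 to 156 CPM, above the 17.6 to 29.8 of PBS once. The part of these cells in the results was not tested.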

How the data were processed

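RNA of 3000 to 3500 sorted HSCs per library was amplified with SMART-Seq v4 and sequenced from Nextera XT libraries. Per the labels, reads were mapped to mm10 with TopHat2 2.0.13 and handled with Cufflinks 2.2.1 and Cuffdiff. The deposited table held whole-number counts per gene for 21 libraries, and how the authors counted was not given in the sources used here. The table was used as deposited, and every column matched 1 sample label. The members and gene lists were chosen with earlier results of these data known.

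Counts were filtered with filterByExpr, scaled by trimmed mean of M values and tested in edgeR 4.0.16 (R 4.3.3) by quasi-likelihood, with only the groups of a comparison in the fit and Benjamini-Hochberg adjustment over all genes tested at 0.05. DESeq2 1.42.0, other scalings, filters, a single fit of 21 libraries, a replicate block and leaving out each library were alternatives. Levels are CPM scaled over 21 libraries (13571 genes). No 2 libraries agreed within sampling noise. By rule, fold changes were given by name for at most 15 called members per comparison by p and for at most 5 called genes of the wider pathway, and other members by their CPM. The scripts were tested on simulated counts. A gene of the wider pathway is not reported here. Positions and transcript lengths came from GENCODE (GRCm38) and promoters from RefSeq (GRCm38.p6). Totals of 22184885 to 38649033 counts per library set the precision.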

Additional observations from a re-analysis of the deposited data

Results flagged for a closer look

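For 2 of the 45 genes the day 6 difference between 5-FU and PBS was not the same after 1 and after 3 injections, by the interaction term of the edgeR fit over 12 libraries. Ifitm1 had an interaction of -1.59 on the log2 scale (adjusted p = 0.015), being higher in 3 of 3 libraries after the first and lower in 3 of 3 after the third. Xaf1 had an interaction of -0.98 (adjusted p = 0.017), with overlapping groups after the first administration and 3 of 3 libraries lower after the third.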

How the results depend on the processing

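The number of members called was 5 after a single administration of 5-FU at day 6 with the replicate block, 10 after 3 administrations, 1 for the interaction and 0 in old HSCs against PBS once, where the fit without it gave 10, 16, 2 and 2. Same-numbered libraries did not deviate together (correlations of -0.054 to 0.032), so the numbers were not read as pairs. With DESeq2 the interaction had 10 called members, day 21 after a single administration 2, day 21 after 3 administrations 4, day 21 of 3 against 1 administration 1, old against PBS once 10, old against PBS 3 times 2 and PBS 3 times against PBS once 2. With library size alone day 21 after a single administration had 1. That scaling moved the median of all genes after 3 administrations at day 6 to -0.11 and that of the members to -0.36, which relative to all genes is near the -0.26 and -0.01 of the main scaling. In a single fit of 21 libraries day 21 after a single administration had 1, after 3 administrations 2, and old against PBS once 4. Leaving out 1 library gave 4 to 6, 9 to 11, 1 to 4 and 0 to 3 in the comparisons of the first sentence, and 0 in the others. No named fold change reversed its direction. The share of all genes called in each alternative is not given beside these counts. A lower count of members is therefore not read as a result about these genes. The cause of these moves was not tested. With 3 libraries per group only differences that exceed the spread between them can be called.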
